A study of Mus musculus with 12 samples.

Results

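Loss of Ing1 was examined in 12 libraries of poly(A) RNA from mouse embryonic fibroblasts that had been induced to form fat cells and were harvested on day 6, by setting the 6 libraries labelled Ing1-KO or DKO against the 6 labelled WT or Gadd45a-KO. Every library titled with one of those genotypes was taken, so all 12 libraries of the series entered, 3 per genotype, and the Gadd45a label entered the fit as a covariate. A gene was called when this main effect of Ing1 loss had a Benjamini-Hochberg adjusted p under 0.05 in edgeR's quasi-likelihood test. A called gene was counted as moving alike on both backgrounds when 3 further conditions held. The difference had the same sign in Ing1-KO against WT and in DKO-labelled against Gadd45a-KO-labelled libraries, the 3 values of one genotype did not overlap the 3 of the other in either comparison, and the smaller of the 2 log2 fold changes was at least 0.5 of the larger. The 2 comparisons share no library. Of 16163 genes tested, 1050 were called and 587 of those moved alike. The calls define the genes that follow, so the size and direction of their main effect are given as a description of what was called.

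The WT group is C57BL/6N and, by its label, carries neither lesion. The group labelled Gadd45a-KO comes from Gadd45a-deficient mice, the group Ing1-KO from Ing1-deficient mice, and the group labelled DKO from intercrosses of the 2 lines. All cells were taken from male E15.5 embryos and grown for 4 passages. All 4 groups then received the same adipogenic cocktail for 48 h, which held 10 µg/ml insulin, 2 µM rosiglitazone, 0.5 mM of the phosphodiesterase inhibitor IBMX and 1 µM dexamethasone, and were kept in insulin afterwards, so the comparison concerns cells under induction and no uninduced culture was analysed here. The labels do not say if replicates are different embryos or dishes, so a p-value here measures only how these libraries scatter, which may be technical. In bulk RNA, fewer cells of a type and less RNA per cell cannot be told apart.

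ING1 is a founding member of the inhibitor of growth family. Its plant homeodomain finger binds trimethylated lysine of histone H3 at promoters, and through it the SIN3 histone deacetylase complex is brought to chromatin. It has been studied as a tumour suppressor that cooperates with p53, and together with GADD45A as part of a machinery that removes methylation from DNA. Fibroblasts under an adipogenic cocktail pass through a short phase of division and then switch on PPARG and CEBPA, which drive the genes of lipid storage.

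The targeted genes were read first because they check the labels. Ing1 (ENSMUSG00000045969) followed its label. It stood at 44.6, 47.9 and 43.6 CPM (reads of a gene scaled to the size of the library) in WT and at 46.3, 47.3 and 44.4 CPM in Gadd45a-KO-labelled libraries, against 1.00, 1.07 and 1.60 CPM in Ing1-KO and 0.916, 1.15 and 0.681 CPM in DKO-labelled libraries. All 6 libraries without Ing1 lay far below all 6 with it, and the main effect was -5.41 ± 0.12 on the log2 scale (SE; edgeR adjusted p = 4.06e-10). Gadd45a went against its label: its level was 138 to 144 CPM in the 6 libraries that carry a Gadd45a-KO or DKO label, above the 13.4 to 18.4 CPM of the remaining 6. Where the Gadd45a covariate is concerned, group names and directions therefore rest on the labels alone, those of WT and Ing1-KO included. Gadd45a itself did not pass the test for Ing1 loss (log2 fold change -0.03 ± 0.07, adjusted p = 0.857).

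Gene reads per library lay between 42891627 and 52860419, and TMM factors between 0.986 and 1.01. Many fibroblast markers were high in all libraries (Col1a1 at no less than 13208 CPM), so RNA of the labelled cell type was seen. Others on that list were low, such as Pi16 (1.73 to 3.47 CPM) and Dpp4 (0.331 to 1.12 CPM), and Tcf21 was not tested. Pparg and Fabp4 were present in all 12 libraries. Markers of macrophages were also present in every library (Lyz2 between 1233 and 4950 CPM), whereas no marker of lymphocytes or red cells reached the level needed for a test; Cd3e and both adult beta-globin genes had no read in any library. Libraries within a genotype differed: Ing1-KO replicate 1 had an adipocyte gene level near that of WT, and in Gadd45a-KO replicate 1 the summed level of the leukocyte markers was the lowest of all 12.

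At the threshold used, 474 genes (2.93% of those tested) were higher and 576 (3.56%) lower in the 6 libraries without Ing1. All 1050 had the same sign on both backgrounds, which the choice of genes by their main effect partly fixes. Over all genes tested, calls or not, 58.2% had the same sign in the 2 comparisons. Of the calls, 718 did not overlap between the groups on either background, where 1051 of all tested genes (6.5%) did so in 1 direction, and 587 (55.9%) met every condition for moving alike: 270 higher (1.67% of all tested) and 317 lower (1.96%). Most of these differences were small. The median fold was 1.25 among the 270 higher and 1.32 among the 317 lower, 63 of the 587 changed at least 2-fold (33 higher, 30 lower), and 213 changed less than 1.2-fold. The values of all 6 libraries without Ing1 lay outside those of all 6 with it for 335 of the 587, and over all tested genes this was so for 223 higher (1.38%) and 263 lower (1.63%).

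**Figure D1:**
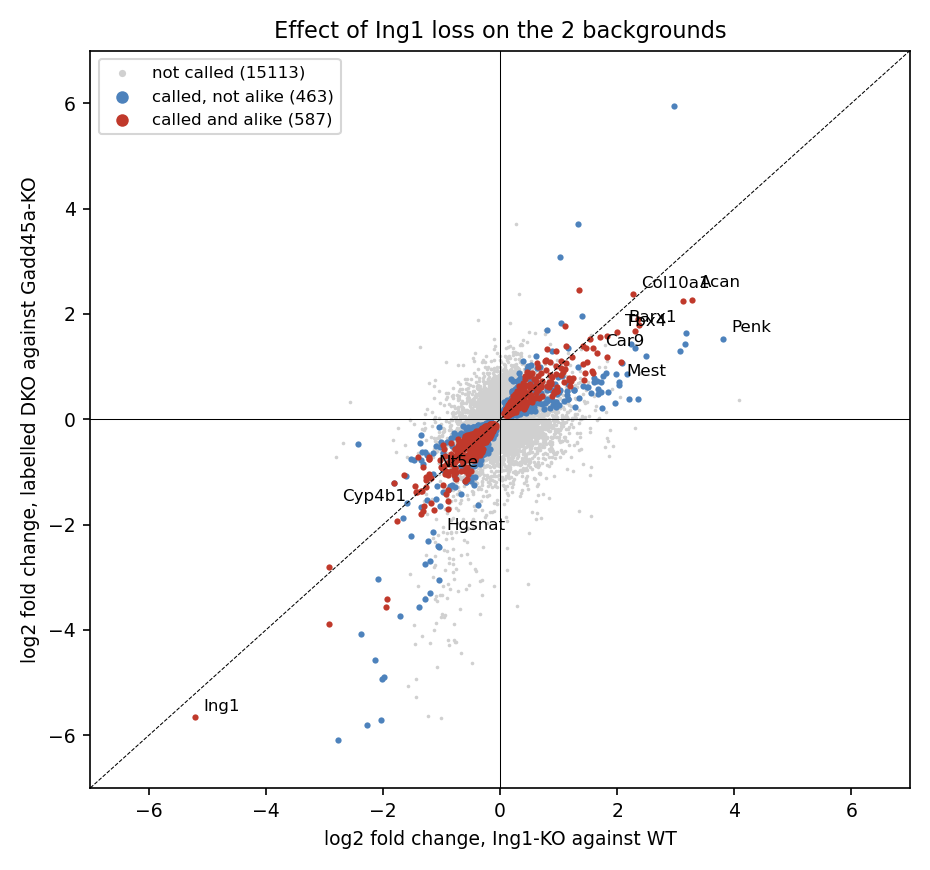
Each point is 1 of 16163 tested genes, with the log2 fold change of Ing1-KO against WT on the x axis and of DKO-labelled against Gadd45a-KO-labelled libraries on the y axis; the dashed line marks equal values, and 1 gene lies outside the axes. The 587 genes that moved alike (red) run from Ing1 at the lower left to Barx1 and Acan at the upper right. They lie around the line because the conditions for moving alike place them there. Many of the 463 other calls (blue) lie nearer one axis, in part for the same reason.

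The comparison within each background alone called fewer genes. In Ing1-KO against WT 699 genes were called (4.32%), of which 78.5% had the same sign on the other background and 206 moved alike. In DKO-labelled against Gadd45a-KO-labelled libraries 203 were called (1.26%), of which 88.7% had the same sign on the other background and 106 moved alike. The 79 genes called in both made up 11.3% of the first list and 38.9% of the second, and 76 of them had the same sign. The main effect joins both comparisons: 345 of the 587 genes were called on neither background alone. No gene was called for the interaction, that is, for a difference between the 2 backgrounds (0% of those tested, smallest adjusted p = 0.0692, edgeR). In that edgeR test 2204 genes had an unadjusted p under 0.05, which is 13.6% of all tested and more than a uniform spread of p would give. The lack of calls does not show that the backgrounds are equal. For the interaction DESeq2 called 175 genes and limma-voom 0. Without Ing1-KO replicate 3 edgeR called 191 and without DKO replicate 3 it called 30, and without WT replicate 3 it called 1. For the genes that moved alike, the 95% interval of the difference between backgrounds reached a median of 0.299 to either side on the log2 scale, so differences below about that size were not resolved.

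The counts depended on single libraries. The number of genes moving alike was 162 higher and 180 lower without WT replicate 1, and 170 higher without DKO replicate 1. It was 454 higher without Gadd45a-KO replicate 1, and 671 lower without Ing1-KO replicate 1. Among the calls as a whole, the higher ones numbered 803 without Gadd45a-KO replicate 1, but 199, 307 and 272 when WT replicate 1, 2 or 3 was left out, 273 without Gadd45a-KO replicate 3, 265 without Ing1-KO replicate 2 and 240 without DKO replicate 1. The lower ones numbered 986 without Ing1-KO replicate 1, but 228 and 308 when WT replicate 1 or 3 was left out, 335 without Gadd45a-KO replicate 3, 273 without Ing1-KO replicate 2, and 291 and 369 when DKO replicate 1 or 2 was left out. With the mean level of the adipocyte genes as a further covariate, 211 of the 587 were still called. Of 104 calls among the genes named by rule, 45 were lost in that fit. Those of Pdgfra, Lss, Cyp51, Fdft1, Scd2, Acsl3, Grem1, Tgfbr3 and Hgsnat were among the lost. The losses given below for single genes concern left-out libraries only.

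Genes of cartilage and of the patterning of limb, face and branchial arches were among those that rose. Acan and Col10a1 had the 2 largest rises of the genes that moved alike at a mean of at least 5 CPM. Acan encodes aggrecan, the main proteoglycan of cartilage. It stood at 3.17, 3.42 and 3.64 CPM in WT and at 5.31, 2.27 and 4.35 CPM in Gadd45a-KO-labelled libraries, against 18.4, 58.6 and 22.4 CPM in Ing1-KO and 18.8, 26.5 and 12.5 CPM in DKO-labelled libraries. Every library without Ing1 lay above every library with it, with Ing1-KO replicate 2 the highest (main effect 2.77 ± 0.37 on the log2 scale, adjusted p = 0.00262, edgeR). Col10a1, the collagen of hypertrophic cartilage, stood at 1.66 to 3.11 CPM with Ing1, at 8.94, 10.0 and 9.56 CPM in Ing1-KO and at 13.9, 16.2 and 6.04 CPM in DKO-labelled libraries. Its groups did not overlap either, and the effect was near equal on the 2 backgrounds (2.27 ± 0.36 and 2.38 ± 0.34). Col11a1, a fibrillar collagen of cartilage that these fibroblasts make at a high level, rose by 0.56 ± 0.08 (adjusted p = 0.00408), from between 502 and 678 CPM to between 716 and 915 CPM. Of 28 tested genes on the cartilage and bone list 5 rose and 1 fell, and these 3 moved alike. The lone fall was kept only without WT replicate 2 or Gadd45a-KO replicate 1, and 2 fell without Ing1-KO replicate 1; the median over the list was 0.240, against 0.00233 over all genes, and it was 0.254 on the WT background and 0.033 on the other. Over all genes 2.93% were called higher and 3.56% lower, the shares against which this and the later list counts of the reported fit stand. List counts from other fits stand against the totals of those fits, which also moved. Those totals were 199 higher and 228 lower without WT replicate 1, and 886 and 972 by DESeq2.

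Barx1, a homeobox gene of jaw, tooth and stomach mesenchyme, rose from a low level. It stood at 0.147, 0.152 and 0.259 CPM in WT, 0.132, 0.0406 and 0.0425 CPM in Gadd45a-KO-labelled libraries, 1.78, 1.76 and 1.42 CPM in Ing1-KO, and 0.352, 0.199 and 0.516 CPM in DKO-labelled libraries. The 3 libraries labelled DKO lay above their own comparison group, while 1 of them lay below the highest WT library (main effect 2.90 ± 0.27, adjusted p = 0.000243, edgeR). In total 27 and 11 reads were counted in the 2 groups with Ing1, and 247 and 49 in the 2 without. Tbx4, the T-box gene of the hindlimb, stood at 1.99 to 3.11 CPM in WT and 9.27 to 10.4 CPM in Ing1-KO, and at 0.913 to 1.38 CPM in Gadd45a-KO-labelled libraries and 1.41 to 6.97 CPM in DKO-labelled libraries. On the second background the gap was narrow, 1.38 against 1.41 CPM (main effect 1.86 ± 0.31, adjusted p = 0.00828). Of 45 tested genes on the patterning list 10 rose and 3 fell; 5 rose and 1 fell without WT replicate 1, and 6 rose without WT replicate 3 and also without Ing1-KO replicate 2. Moving alike among them were Barx1, Tbx4, and, named after their values were seen, Pax1 (1.26 ± 0.25, a gene of the vertebral column) and Dlx5 (1.40 ± 0.30, a distal-less gene of bone and branchial arches) among the higher. Dlx5 lost its call without Ing1-KO replicate 2 (highest adjusted p = 0.0503).

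In the other direction on the same list, Tbx1, the T-box gene of the pharyngeal arches, fell by 0.67 (SE 0.14, edgeR adjusted p = 0.0191) and lost its call without WT replicate 1 (adjusted p = 0.0518). Among 35 tested Hox genes 3 fell and 1 rose, against 3.56% and 2.93% of all genes, and the 3 that fell belong to the Hoxd cluster. The lone rise was lost without WT replicate 1 or DKO replicate 1, and 2 rose without Ing1-KO replicate 3 or DKO replicate 3. Hoxd3 stood at 4.82 to 5.84 CPM with Ing1, 3.39 to 3.77 CPM in Ing1-KO and 2.72 to 3.08 CPM in DKO-labelled libraries. It fell by 0.78 (SE 0.09, adjusted p = 0.00114, edgeR), Hoxd8 by 0.60 (SE 0.08, adjusted p = 0.00311) and Hoxd9 by 0.79 (SE 0.13, adjusted p = 0.00583), and in all 3 the 6 libraries without Ing1 lay below the other 6. The median over the patterning list was 0.304 in Ing1-KO against WT and -0.046 in DKO-labelled against Gadd45a-KO-labelled libraries.

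**Figure D2:**
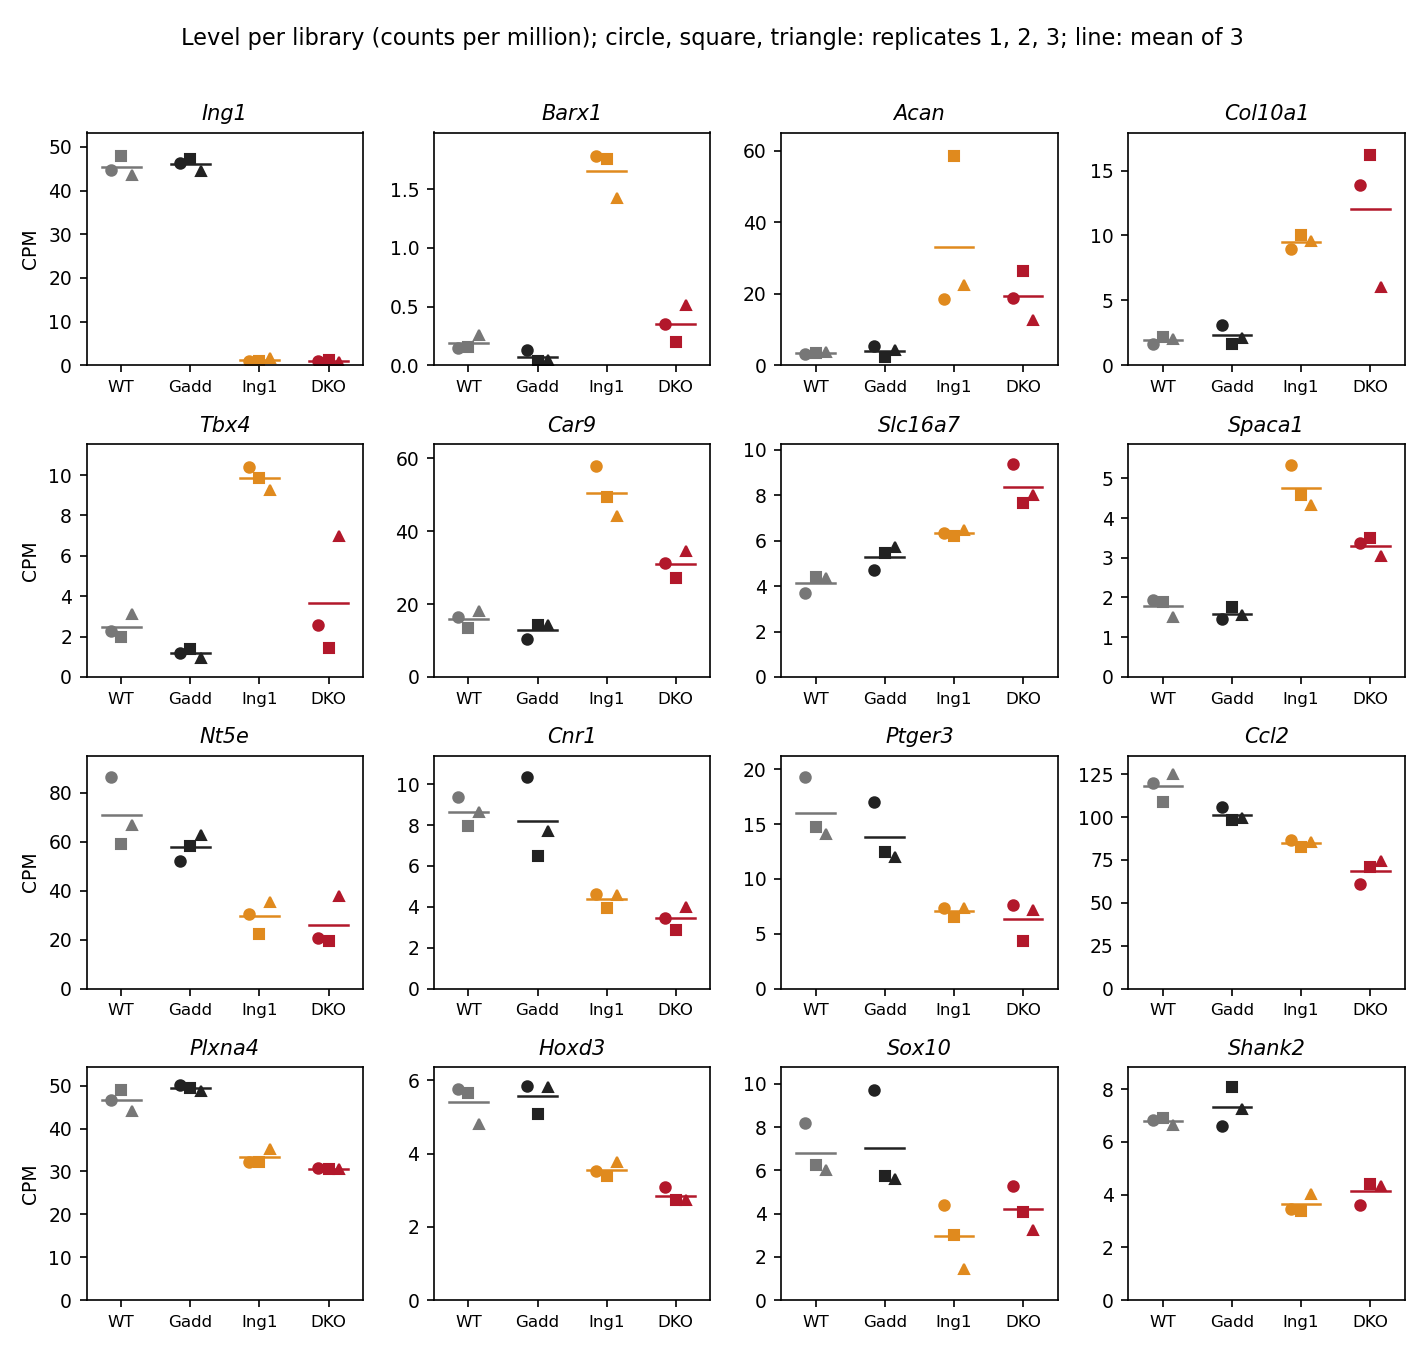
Level of 16 genes in each of the 12 libraries in CPM (y axis, from 0), by genotype as labelled (x axis; Gadd stands for Gadd45a-KO and Ing1 for Ing1-KO); symbols are replicates 1 to 3 and lines the mean of 3. Ing1 is near 1 CPM in both groups without it. The other 15 genes were picked from those that moved alike. For these the 3 libraries without Ing1 do not overlap their comparison group on either background, by definition. The gap is narrow for Tbx4 between Gadd45a-KO-labelled and DKO-labelled libraries.

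To show what the starts of the patterning genes look like, the 250 bases before the transcript start of Barx1 (chr13:48662786-48663035, plus strand) and Tbx4 (chr11:85896515-85896764, plus strand) are printed from RefSeq, build GRCm38.p6, with each CG pair in capitals. The pair differs widely in CpG content.
Barx1: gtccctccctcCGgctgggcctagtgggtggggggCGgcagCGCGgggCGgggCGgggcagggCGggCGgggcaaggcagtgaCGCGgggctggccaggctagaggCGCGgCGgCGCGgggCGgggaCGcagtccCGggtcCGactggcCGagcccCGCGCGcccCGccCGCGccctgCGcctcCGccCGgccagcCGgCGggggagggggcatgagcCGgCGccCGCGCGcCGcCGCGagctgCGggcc
Tbx4: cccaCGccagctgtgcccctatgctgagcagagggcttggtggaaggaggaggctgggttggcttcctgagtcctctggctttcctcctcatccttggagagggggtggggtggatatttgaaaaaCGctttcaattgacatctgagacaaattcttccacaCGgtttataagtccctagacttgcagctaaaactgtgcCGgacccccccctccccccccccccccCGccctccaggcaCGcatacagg
The Barx1 window holds 40 CG pairs and that of Tbx4 holds 6. Over the 11486 tested genes with an entry in the table the median was 15. Among genes that rose alike at least 2-fold the median was 8 (27 of 33 matched), and among those that fell alike at least 2-fold it was 17 (25 of 30). Over all genes moving alike the medians were 14 for those higher and 15 for those lower, close to that of all genes.

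Outside those lists the genes with the largest rises had varied functions. Mab21l2, a gene of eye and limb development named after its values were seen, had the smallest adjusted p after Ing1. It stood at 0.986, 1.37 and 1.89 CPM in WT, 1.13, 0.852 and 0.849 CPM in Gadd45a-KO-labelled libraries, 7.56, 6.43 and 7.94 CPM in Ing1-KO and 3.66, 3.11 and 3.94 CPM in DKO-labelled libraries. The 2 sets of 6 were well apart (2.17 ± 0.15, adjusted p = 5.48e-05, edgeR). Mecom, which encodes a zinc finger transcription factor of blood stem cells, stood at 6.71 to 9.61 CPM with Ing1 (median 7.35) and at 13.9 to 40.5 CPM without it (median 20.7), with no overlap (main effect 1.58 ± 0.21, adjusted p = 0.00278, edgeR). Car9, a carbonic anhydrase known as a target of hypoxia signalling, stood at 16.5, 13.4 and 18.2 CPM in WT and 10.3, 14.2 and 14.2 CPM in Gadd45a-KO-labelled libraries. It reached 57.9, 49.2 and 44.2 CPM in Ing1-KO and 31.3, 27.0 and 34.5 CPM in DKO-labelled libraries. The groups stood well apart on both backgrounds, each of which passed the test alone (1.65 ± 0.16 and 1.27 ± 0.16). Il1rn, the natural antagonist of interleukin-1, rose from between 29.7 and 49.9 CPM to between 57.3 and 129 CPM (1.23 ± 0.17, adjusted p = 0.00278). Cdsn, an adhesion protein of cornified skin, rose from a median of 6.70 to 17.8 CPM, and Slc40a1, the iron exporter ferroportin, from a median of 30.6 to 59.3 CPM. In Slc40a1 the rise was the larger in DKO-labelled libraries, at 68.2 to 74.0 CPM against 40.7 to 50.3 CPM in Ing1-KO, and the highest library with Ing1 (41.2 CPM) lay above the lowest without it.

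Further rises were small, with adjusted p among the 8 smallest of the higher genes at a mean of at least 5 CPM. Prcp, a lysosomal carboxypeptidase, stood at 39.2 to 43.6 CPM in the 6 libraries with Ing1 and 47.0 to 57.8 CPM in the 6 without (0.32 ± 0.03, adjusted p = 0.000579, edgeR). Myo1e, a class I myosin, rose by 0.46 ± 0.05 (adjusted p = 0.000938), Rasal2, a Ras GTPase-activating protein, by 0.40 ± 0.04 (0.00103), and Slc16a7, a monocarboxylate transporter, by 0.63 ± 0.07 (0.00137). Arf2, a small GTPase of vesicle traffic, rose by 0.30 ± 0.03 (0.00142) and Cacna1h, a T-type calcium channel, by 0.61 ± 0.07 (0.00163). In all 6 of these genes the libraries with and without Ing1 did not overlap, and each was called with every single library left out. The choice of genes by small adjusted p and by moving alike partly fixes both.

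The genes that fell most, or with the smallest adjusted p, had varied functions. Nt5e (CD73), the enzyme that makes adenosine outside the cell and a marker of mesenchymal stromal cells, stood at 86.3, 59.1 and 66.7 CPM in WT and 52.0, 58.3 and 62.6 CPM in Gadd45a-KO-labelled libraries, against 30.5, 22.4 and 35.3 CPM in Ing1-KO and 20.7, 19.5 and 37.6 CPM in DKO-labelled libraries. The 2 sets of 6 did not overlap (-1.21 ± 0.17, adjusted p = 0.00396, edgeR). Cnr1, the cannabinoid receptor, fell from between 6.47 and 10.4 CPM to between 2.87 and 4.65 CPM (-1.11 ± 0.12, adjusted p = 0.00111). Plxna4, a semaphorin receptor, had the smallest adjusted p after Ing1 among genes that fell alike at a mean of at least 5 CPM: it stood at 44.2 to 50.2 CPM with Ing1, at 32.2 to 35.2 CPM in Ing1-KO and at 30.6 to 30.7 CPM in DKO-labelled libraries (-0.59 ± 0.04, adjusted p = 8.2e-05). Shank2, a scaffold protein best known at synapses, fell from between 6.59 and 8.09 CPM to between 3.39 and 4.42 CPM (-0.86 ± 0.07, adjusted p = 0.000224). Ntn1, the guidance cue netrin-1, fell by 0.69 (SE 0.10, adjusted p = 0.00353).

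Further falls were in 4 genes of unlike function. Cyp26b1, which degrades retinoic acid, stood at 97.4 to 135 CPM with Ing1 and at 42.3 to 76.0 CPM without (-0.92 ± 0.12, adjusted p = 0.00262, edgeR). Cyp4b1, a fatty acid hydroxylase, fell from a median of 18.5 to 6.02 CPM (-1.41 ± 0.23, adjusted p = 0.00674). Pcyt1b, an enzyme of phosphatidylcholine synthesis, fell by 0.45 (SE 0.04, adjusted p = 0.000348), and Adamts2, the protease that trims procollagen, by 0.31 (SE 0.03, adjusted p = 0.00111). In these 4 genes too the 2 sets of 6 libraries did not overlap, which the choice among genes that moved alike partly fixes.

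Of 30 tested chemokines and cytokines 2 rose and 3 fell, and all 5 moved alike. Ccl2, the main chemokine that draws monocytes, stood at 120, 109 and 125 CPM in WT, 106, 98.5 and 99.7 CPM in Gadd45a-KO-labelled libraries, 86.7, 82.5 and 85.5 CPM in Ing1-KO and 60.9, 70.9 and 74.4 CPM in DKO-labelled libraries. Each group without Ing1 lay below both groups with it (-0.52 ± 0.05, adjusted p = 0.000459, edgeR). Ccl7, which lies beside it and acts on the same receptor, fell by 0.44 (SE 0.04, adjusted p = 0.000459). The list's median was -0.063, and its rises numbered 1 on dropping any WT replicate, any DKO replicate, or 1 of Ing1-KO replicates 1 and 2. Of 20 tested prostaglandin genes 4 fell and none rose; 1 fell without WT replicate 1, and 2 without WT replicate 3, Gadd45a-KO replicate 3, Ing1-KO replicate 2 or DKO replicate 1. Ptger3, an inhibitory receptor for prostaglandin E2, fell from between 12.0 and 19.3 CPM to between 4.31 and 7.61 CPM (-1.15 ± 0.14, adjusted p = 0.0018). Ptges, the synthase, fell by 0.50 (SE 0.10, adjusted p = 0.0179) and lost its call without WT replicate 1 (0.0506). Ptger4, a stimulatory receptor, fell by 0.23 (SE 0.05, adjusted p = 0.0265). The call for Ptger4 was lost without WT replicate 1 or 3, Gadd45a-KO replicate 3, Ing1-KO replicate 2 or DKO replicate 1 (highest adjusted p = 0.0649).

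Of 18 tested fibroblast markers 1 rose and 4 fell, all 5 alike; 2 fell without WT replicate 1, Ing1-KO replicate 2 or DKO replicate 1, and 2 rose without Gadd45a-KO replicate 1, Ing1-KO replicate 3 or DKO replicate 2. Pdgfra, the receptor that marks mesenchymal progenitors, stood at 497 to 644 CPM with Ing1 and at 295 to 466 CPM without (-0.55 ± 0.10, adjusted p = 0.00923, edgeR). S100a4, a calcium-binding protein of motile fibroblasts, fell by 0.23 (SE 0.03, adjusted p = 0.00358), and Fap, a protease of activated fibroblasts, rose by 0.75 ± 0.13 (adjusted p = 0.00827). The others, named after their values were seen, were Thy1 (-0.32 ± 0.07) and Ly6a (-0.37 ± 0.08), 2 surface markers. Thy1 lost its call without WT replicate 1 or 3, Ing1-KO replicate 2 or DKO replicate 1 (highest adjusted p = 0.0599), and Ly6a without WT replicate 1, Gadd45a-KO replicate 2, Ing1-KO replicate 2 or DKO replicate 1 or 2 (0.07). The summed level of the list was 66390 to 70660 CPM in WT, 67300 to 67870 in Gadd45a-KO-labelled libraries, 64810 to 69550 in Ing1-KO and 61600 to 67080 in DKO-labelled libraries.

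Sox10 and Cdh19, genes that define Schwann cells, also fell (-0.97 ± 0.24, adjusted p = 0.0394, and -1.04 ± 0.28, adjusted p = 0.0486, edgeR). Sox10 stood at 5.58 to 9.74 CPM with Ing1 and at 1.46 to 5.26 CPM without. Neither call was stable: that of Sox10 held in 5 of 12 fits that left out a library and was lost without any WT replicate, Gadd45a-KO replicate 1, Ing1-KO replicate 2 or DKO replicate 2 or 3 (highest adjusted p = 0.0927). That of Cdh19 held in 2 of 12, without Gadd45a-KO replicate 2 and without Ing1-KO replicate 1, and was lost in the others (highest adjusted p = 0.106). Of 9 tested Schwann cell markers 3 fell and none rose; 1 fell without Ing1-KO replicate 3 or DKO replicate 1, and 0 without any WT replicate, Gadd45a-KO replicate 1, Ing1-KO replicate 2 or DKO replicate 2 or 3. The list's summed level was 255.1 to 320.1 CPM in Ing1-KO against 289 to 310.2 CPM in WT.

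Of 25 tested genes of cholesterol synthesis 14 fell and none rose, 8 of them alike. On the WT background alone 10 were called and on the other 1, while the median was -0.268 in Ing1-KO against WT and -0.261 in DKO-labelled against Gadd45a-KO-labelled libraries, where that of all genes was 0.00313 and -0.0025. Lss, lanosterol synthase, stood at 91.0, 74.9 and 85.0 CPM in WT, 65.5, 71.2 and 66.1 CPM in Gadd45a-KO-labelled libraries, 72.4, 57.7 and 49.2 CPM in Ing1-KO and 49.6, 48.3 and 48.3 CPM in DKO-labelled libraries. Ing1-KO replicate 1, the library nearest to WT in adipocyte genes, was the highest of the 6 without Ing1 and lay above Gadd45a-KO-labelled libraries (-0.48 ± 0.08, adjusted p = 0.00762, edgeR). Cyp51, lanosterol demethylase, fell from between 179 and 205 CPM to between 138 and 172 CPM with no overlap (-0.30 ± 0.05, adjusted p = 0.00528), and Fdft1, squalene synthase, by 0.26 (SE 0.04, adjusted p = 0.00492). Srebf2, which encodes the transcription factor of the pathway and was named after its values were seen, fell by 0.17 (SE 0.03, adjusted p = 0.014). Left-out libraries moved the count of falls from 14 to between 8 (WT replicate 1 or Gadd45a-KO replicate 3 dropped) and 18 (without Ing1-KO replicate 1); it was 9 if WT replicate 3, Gadd45a-KO replicate 2, Ing1-KO replicate 2 or DKO replicate 1 was dropped. With the adipocyte level as covariate the count was 1.

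Genes of adipocyte identity lay lower in the libraries without Ing1, with a wide spread between libraries. All 43 tested members had a negative main effect (median -1.14), 7 of 43 passed the test and 1 moved alike. That 1 was Fabp5, a fatty acid binding protein also made by other cells, which fell from between 202 and 276 CPM to between 148 and 194 CPM (-0.54 ± 0.08, adjusted p = 0.00561, edgeR). Fabp4, the fatty acid binding protein of fat cells, stood at 1216, 627 and 1181 CPM in WT, 525, 539 and 394 CPM in Gadd45a-KO-labelled libraries, 1219, 406 and 98.8 CPM in Ing1-KO and 68.7, 68.6 and 78.9 CPM in DKO-labelled libraries. Ing1-KO replicate 1 was as high as the highest WT library, while replicate 3 was near DKO-labelled libraries, and the main effect did not pass (-1.77 ± 0.56, adjusted p = 0.0835). Pparg (-1.37 ± 0.43, adjusted p = 0.0817), Adipoq (-2.18 ± 0.70, 0.0872) and Cebpa (-0.46 ± 0.22, 0.232) did not pass either by edgeR. DESeq2 called Pparg (adjusted p = 0.0161), Fabp4 (0.0169) and Adipoq (0.0084), and limma-voom called Fabp4 (0.0376). The falls on the list numbered 31 by DESeq2 and 12 by limma-voom, where 972 and 598 of all genes fell. Without Ing1-KO replicate 1 the count of falls was 39 on the list and 986 over all genes. In that fit all 4 of these adipogenic genes passed: Pparg at -1.95, Fabp4 at -2.41, Adipoq at -2.97 and Cebpa at -0.68. The summed level of the list was 4670 to 7786 CPM in WT, 3631 to 4295 in Gadd45a-KO-labelled libraries, 2317 to 6707 in Ing1-KO and 2250 to 2288 in DKO-labelled libraries. The count was also moved by over 1.5 times without WT replicate 1 (1), 2 (12) or 3 (2), Gadd45a-KO replicate 2 (3) or 3 (2), Ing1-KO replicate 2 (2) and DKO replicate 1 (2), 2 (2) or 3 (3). On the list of fatty acid synthesis 9 of 25 fell, of which Scd2, a stearoyl-CoA desaturase (-0.43 ± 0.06, adjusted p = 0.00391), and Acsl3, an acyl-CoA synthetase of lipid droplets (-0.32 ± 0.06, 0.0115), moved alike. That count was 18 without Ing1-KO replicate 1, 2 without WT replicate 1 or 3, Ing1-KO replicate 2 or DKO replicate 1, 3 without Gadd45a-KO replicate 3 or DKO replicate 3, and 4 without Gadd45a-KO replicate 2 or DKO replicate 2.

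Of 31 tested genes on the lysosomal list 11 rose slightly and none fell, 7 of them alike. The median was 0.106 on the WT background and 0.194 on the other. The list does not hold Hgsnat, a lysosomal gene described below, which fell alike (-1.42 ± 0.19). Lamp1, 1 of the 11, lies 1.6 Mb from Ing1, a region also described below. Hexa, a subunit of beta-hexosaminidase, stood at 176, 185 and 183 CPM in WT, 179, 206 and 205 CPM in Gadd45a-KO-labelled libraries, 209, 209 and 219 CPM in Ing1-KO and 240, 250 and 249 CPM in DKO-labelled libraries. The 2 sets of 6 did not overlap (0.28 ± 0.04, adjusted p = 0.00265, edgeR). Tpp1, a tripeptidyl peptidase, rose by 0.15 ± 0.03 (adjusted p = 0.0174, edgeR). The summed level of the lysosomal list was 8510 to 9098 CPM in WT, 7587 to 9784 in Gadd45a-KO-labelled libraries, 9474 to 10400 in Ing1-KO and 11030 to 11220 in DKO-labelled libraries. Macrophages are rich in lysosomes. Of 30 leukocyte markers 29 had a positive main effect, with a median of 0.113 on the WT background and 0.752 on the other. By edgeR 0 of 30 were called higher and 1 lower, and DESeq2 called 4 higher. The summed level of the leukocyte markers was 5367 to 6181 CPM in WT and 5470 to 6300 in Ing1-KO, which overlap. It was 3006 to 8365 CPM in Gadd45a-KO-labelled libraries and 10380 to 10930 in DKO-labelled libraries. Without Gadd45a-KO replicate 1, which held the lowest of these values, 10 leukocyte markers and 17 lysosomal genes were called higher. Over all genes 803 were called higher in that fit. With the leukocyte level as a covariate 3 lysosomal genes were called higher, and with the adipocyte level 1. The count of lysosomal rises was 6 or 7 without WT replicate 3, Gadd45a-KO replicate 3, Ing1-KO replicate 2 or DKO replicate 1, 2 or 3, and 4 without WT replicate 1. The part of macrophage RNA in the rise of these genes was not tested.

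**Figure D3:**
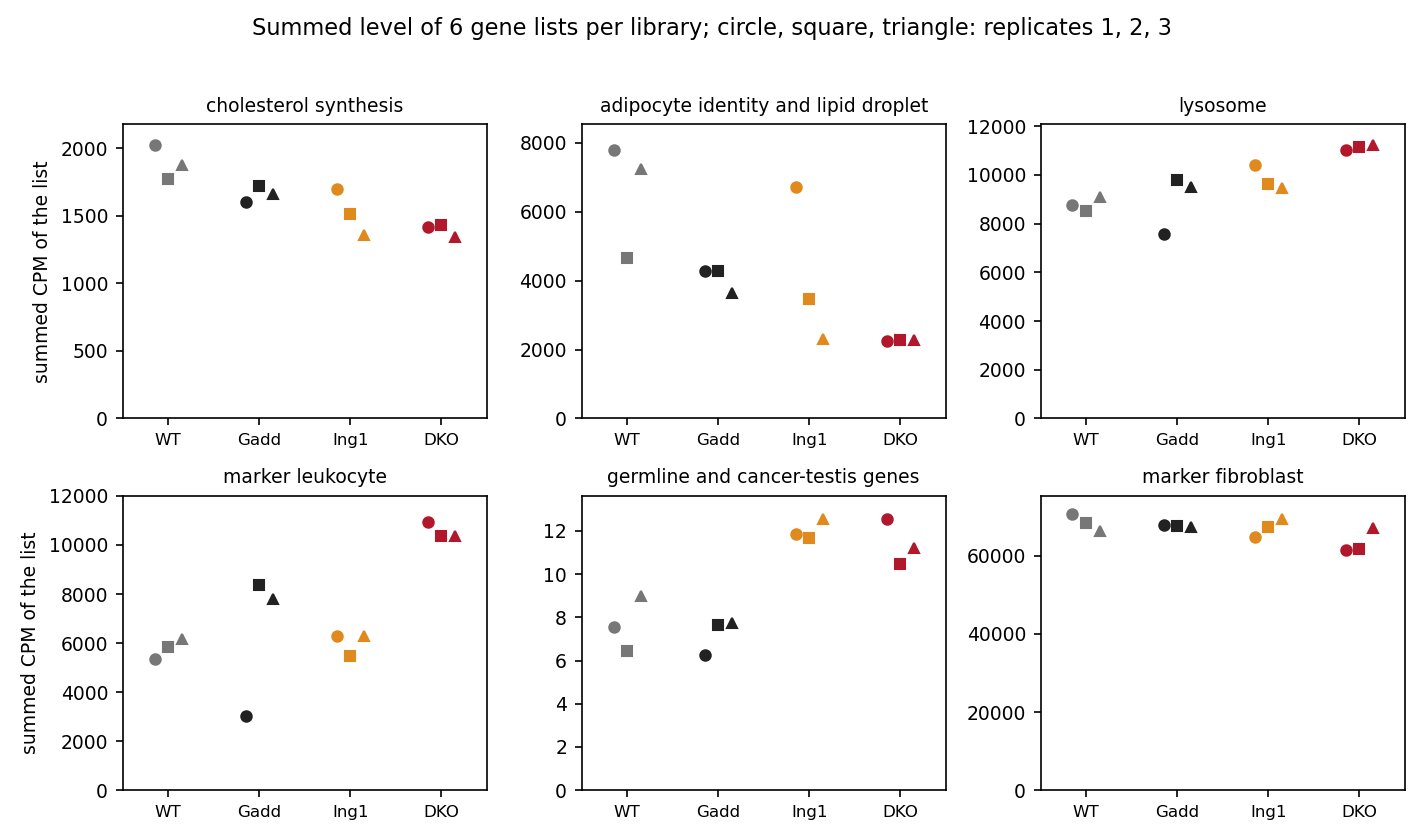
Summed level of 6 gene lists in each library in CPM (y axis, from 0), by genotype as labelled (x axis; Gadd stands for Gadd45a-KO and Ing1 for Ing1-KO); symbols are replicates 1 to 3. The summed level of germline genes, to which Sycp1 adds up to 3.91 CPM, is higher in all 6 libraries without Ing1 than in the other 6, adipocyte genes range from 2317 to 6707 CPM within Ing1-KO, and leukocyte markers are highest in the 3 libraries labelled DKO.

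A pair of promoter windows is shown because members of these 2 lists moved together: the 250 bases before the start of Cyp51 (chr5:4104698-4104947, minus strand), with the box CCAAT in capitals, and of Ctsd, cathepsin D (chr7:142387828-142388077, minus strand), with the palindrome TCACGTGA in capitals, both from RefSeq, build GRCm38.p6.
Cyp51: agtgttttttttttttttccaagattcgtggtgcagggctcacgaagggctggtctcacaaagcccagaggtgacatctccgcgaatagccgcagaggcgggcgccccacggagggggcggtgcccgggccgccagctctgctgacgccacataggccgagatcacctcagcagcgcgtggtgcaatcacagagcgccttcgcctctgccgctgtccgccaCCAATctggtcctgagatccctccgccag
Ctsd: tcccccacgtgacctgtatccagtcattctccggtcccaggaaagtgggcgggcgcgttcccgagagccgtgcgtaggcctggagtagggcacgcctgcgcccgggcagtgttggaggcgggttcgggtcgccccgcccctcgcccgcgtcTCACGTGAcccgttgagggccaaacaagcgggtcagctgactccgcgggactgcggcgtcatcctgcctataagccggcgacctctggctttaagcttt
Both strands were searched, and TCACGTGA holds CACGTG, which was also searched on its own. CCAAT was found in 14 of 17 matched windows of cholesterol genes (82.4%), against 36.0% of all 11486, and GGGCGG in 15 of 17 (88.2%), against 57.2%. TCACGTGA was found in 3 of 22 matched lysosomal genes (13.6%), against 1.44% of all, and in 1.47% of the genes that rose alike. CACGTG was found in 31.8% of the lysosomal genes and 8.16% of all. Among all genes that moved alike CCAAT was found in 37.7% of those higher and 32.3% of those lower, and GGGCGG in 63.7% and 57.0%. TCACNCCA, where N is any base, was found in 6.37% of those higher and 5.38% of those lower, against 3.27% of all. Of the 17 cholesterol windows 2 held TCACNCCA (11.8%). TGACTCA was found in 3.92% of those higher and 4.93% of those lower, against 3.21% of all. TATAAA was found in 7.35% and 8.07%, against 6.82%. These shares describe letters in a window. Ctsd, named after its values were seen, rose by 0.39 ± 0.09 (adjusted p = 0.0302, edgeR) and lost its call without WT replicate 1 or 2, Gadd45a-KO replicate 3, Ing1-KO replicate 2 or any DKO replicate (highest adjusted p = 0.0703).

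Of 27 listed germline genes, a class silent in most body cells, 10 were tested; 2 rose, none fell and 8 were not called. Tdrd1, a Tudor protein of the piRNA pathway that protects germ cells from transposons, stood at 0.294, 0.217 and 0.358 CPM in WT, 0.320, 0.426 and 0.318 CPM in Gadd45a-KO-labelled libraries, 0.582, 0.670 and 0.481 CPM in Ing1-KO and 0.540, 0.552 and 0.454 CPM in DKO-labelled libraries. All 6 libraries without Ing1 were above the other 6 (0.75 ± 0.17, adjusted p = 0.0242, edgeR), on 42 and 53 reads in the groups with Ing1 and 86 and 70 in those without. Its call was lost without WT replicate 1, Gadd45a-KO replicate 3, Ing1-KO replicate 2 or DKO replicate 1 (highest adjusted p = 0.0645). Sycp1, a central protein of the synaptonemal complex of meiosis, was named after its values were seen. It had no read in WT replicate 1 and Gadd45a-KO replicate 1, which allows up to 0.0624 and 0.0568 CPM (3 reads, counting error only), and 0.0217 to 1.39 CPM in the other 4 libraries with Ing1. It stood at 3.91, 3.73 and 3.90 CPM in Ing1-KO and 3.54, 2.74 and 1.73 CPM in DKO-labelled libraries (adjusted p = 0.00771). WT replicate 3, at 1.39 CPM, stood apart from the others with Ing1, and the sizes on the 2 backgrounds differed too much for Sycp1 to count as alike. The summed level of the list was 6.234 to 8.978 CPM in the 6 libraries with Ing1 and 10.45 to 12.54 CPM in the 6 without, Sycp1 included. The mean log2 CPM of the list overlapped, at -0.681 in WT replicate 3 against -0.72 and -0.921 in DKO replicates 1 and 2. The window of Tdrd1 (RefSeq, GRCm38.p6, chr19:56825959-56826208, plus strand) is shown with its 11 CG pairs in capitals, because DNA methylation at such starts is known to silence this class of gene; methylation was not measured.
Tdrd1: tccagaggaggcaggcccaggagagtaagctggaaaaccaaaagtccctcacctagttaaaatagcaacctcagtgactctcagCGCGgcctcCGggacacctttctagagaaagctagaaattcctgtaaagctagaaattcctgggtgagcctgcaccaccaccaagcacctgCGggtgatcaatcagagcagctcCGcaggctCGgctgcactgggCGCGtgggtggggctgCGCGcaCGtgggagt

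**Figure D4:**
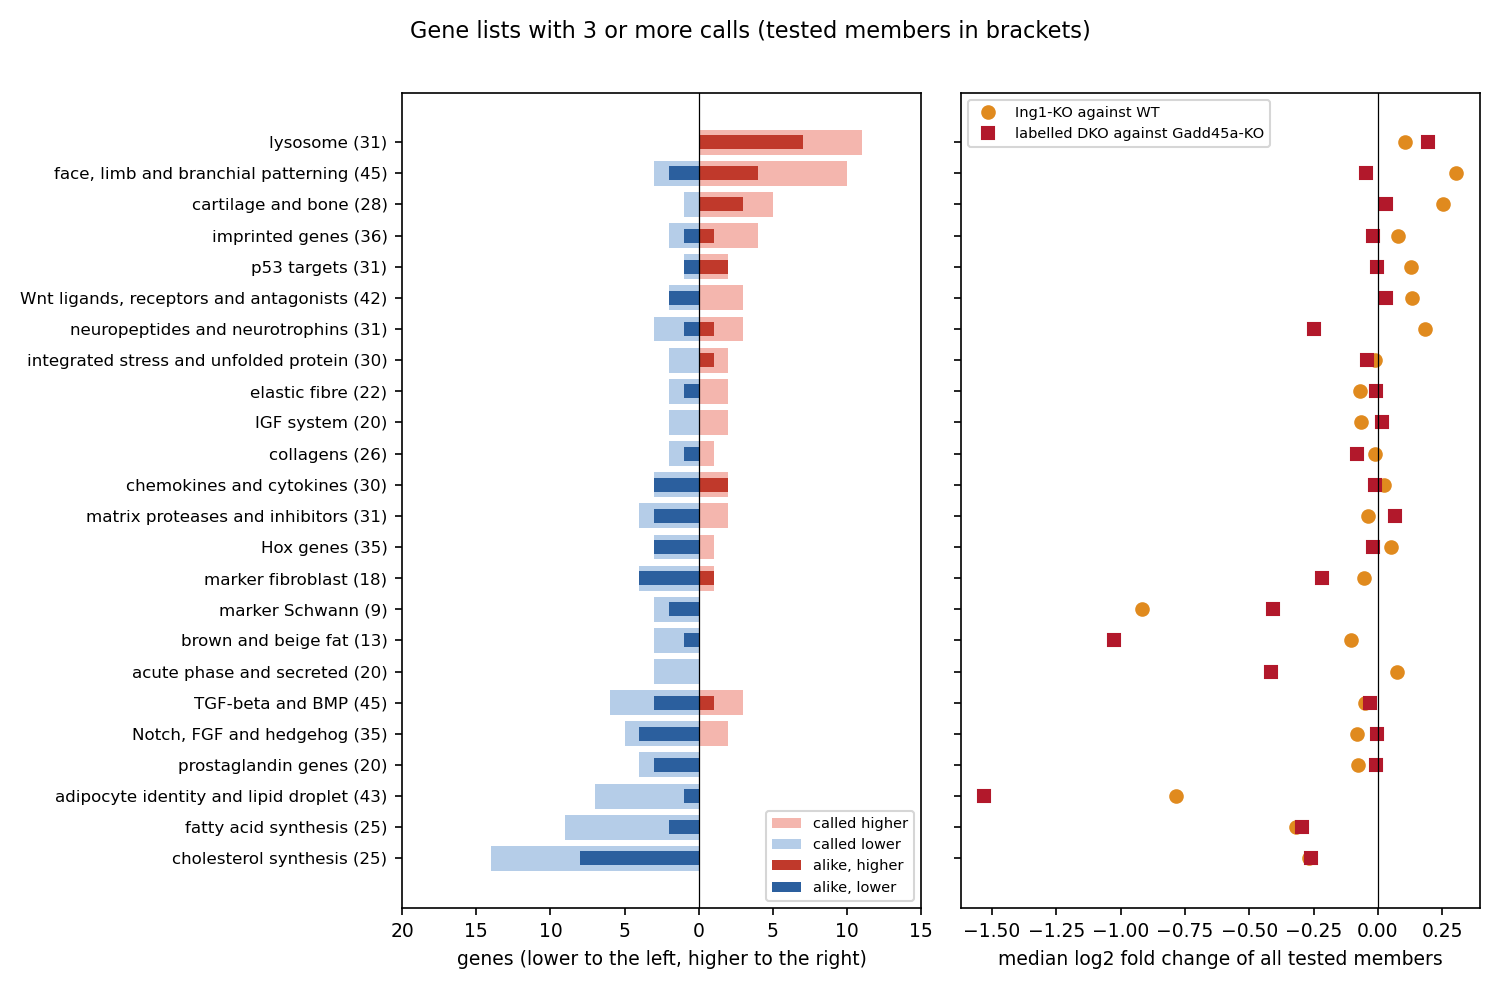
Gene lists with 3 or more calls. Left, number of genes called (pale) and moving alike (dark), lower to the left and higher to the right; right, median log2 fold change of all tested members in Ing1-KO against WT (circles) and in DKO-labelled against Gadd45a-KO-labelled libraries (squares). Cholesterol synthesis has the most falls (14 of 25) with medians of -0.268 and -0.261 on the 2 backgrounds, lysosome the most rises (11 of 31), and the adipocyte medians are far apart.

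Partners of ING1 and pathways it is known for were read from fixed lists, beside 6.5% of all genes called. Among 17 tested members of the SIN3 histone deacetylase complex, Ing1 fell and Ing2, the paralogue that occupies the same place in the complex, rose by 0.17 ± 0.05 (adjusted p = 0.0442, edgeR). Ing2 stood at 10.2 to 11.0 CPM with Ing1, 10.7 to 12.0 CPM in Ing1-KO and 12.2 to 12.9 CPM in DKO-labelled libraries, did not move alike, and lost its call in 10 of 12 fits that left out a library, all but those without Ing1-KO replicate 1 or 3 (highest adjusted p = 0.102). Sin3a (0.10 ± 0.03, adjusted p = 0.0835), Hdac1 (0.02 ± 0.04, 0.741) and Hdac2 (0.04 ± 0.03, 0.517) did not pass. Of 17 tested genes of DNA methylation and demethylation 0 were called by edgeR. Trp53 (-0.08 ± 0.04, adjusted p = 0.255), Cdkn1a (0.11 ± 0.05, 0.239) and Cdkn2a (0.23 ± 0.10, 0.218) did not pass. Of 31 tested p53 targets 2 rose and 1 fell, all alike. Ddit4, an inhibitor of mTORC1 signalling, fell from between 168 and 189 CPM to between 119 and 145 CPM (-0.41 ± 0.05, adjusted p = 0.00213). Btg2 (0.22 ± 0.05, adjusted p = 0.0236) and Sesn1 (0.40 ± 0.09, 0.0284), an antiproliferative gene and a sestrin, rose; Btg2 lost its call without WT replicate 1, Ing1-KO replicate 2 or DKO replicate 1 (highest adjusted p = 0.0625), and Sesn1 without WT replicate 1 or DKO replicate 1 or 3 (0.0708). Of 44 genes of DNA replication and mitosis 1 was lower (6 without Gadd45a-KO replicate 1, 2 without DKO replicate 2, 1 without DKO replicate 3 and 0 without any of the others), and their median was -0.296 on the WT background and 0.038 on the other.

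Developmental signals were read in 3 lists, beside 2.93% of all genes called higher and 3.56% lower. In the TGF-beta and BMP list, where 3 of 45 rose and 6 fell, those that fell alike were Grem1, a BMP antagonist (-0.47 ± 0.08, adjusted p = 0.00828, edgeR), Inhbb, an activin subunit (-0.53 ± 0.09, 0.00845), and Tgfbr3, the betaglycan co-receptor (-0.74 ± 0.14, 0.0151). In the Notch, FGF and hedgehog list, where 2 of 35 rose and 5 fell, they included Gli2, a transcription factor of hedgehog signalling (-0.29 ± 0.05, 0.0109). Nkd2, an inhibitor of Wnt signalling, fell by 0.53 (SE 0.08, adjusted p = 0.00403). Of the 42 tested Wnt genes 3 rose and 2 fell, and both that fell, Nkd2 and Lrp5, moved alike. Lrp5 lost its call without WT replicate 1 (adjusted p = 0.0549, edgeR). The medians of these 3 lists were near 0 (-0.022, -0.022 and 0.031).

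Some calls had unequal estimates on the 2 backgrounds, though 0 genes passed the test of that difference by edgeR. Among called genes at a mean of at least 5 CPM, the 6 with the smallest interaction p were Mest, Slc29a1, Prdx6, Rbpms, Tfpi2 and Adcyap1r1, none of which moved alike. Mest, an imprinted gene of growing mesoderm, stood at 48.8, 35.5 and 48.5 CPM in WT and 197, 213 and 130 CPM in Ing1-KO, but at 63.7, 48.8 and 55.4 CPM in Gadd45a-KO-labelled libraries and 104, 83.6 and 85.6 CPM in DKO-labelled libraries. All 6 libraries without Ing1 lay above the other 6, and the rise was 2.02 ± 0.20 on the first background and 0.70 ± 0.19 on the second (difference -1.32, 95% interval -1.93 to -0.71, unadjusted p = 0.000671, edgeR). Tfpi2, an inhibitor of coagulation proteases, differed by -1.05 ± 0.12 on the WT background and by -0.15 ± 0.12 on the other; the main effect lost its call in 10 of 12 fits that left out a library, all but those without Gadd45a-KO replicate 1 or DKO replicate 2 (highest adjusted p = 0.0974). Adcyap1r1, the receptor of the neuropeptide PACAP, went the other way, from 6.87, 6.81 and 4.37 CPM in Gadd45a-KO-labelled libraries to 1.74, 2.32 and 1.77 CPM in DKO-labelled libraries (-1.63 ± 0.20), and by -0.37 ± 0.17 on the WT background. Its main effect lost its call without any DKO replicate, WT replicate 1 or 3, Ing1-KO replicate 2, or Gadd45a-KO replicate 2 or 3 (0.0785). Rbpms, an RNA-binding protein, kept its call in 5 of 12 such fits, those without a Gadd45a-KO replicate or without DKO replicate 1 or 2 (highest adjusted p = 0.0862). Penk and Eln, the precursors of enkephalins and elastin, were called higher but did not meet the conditions. Penk ranged from 55.0 to 420 CPM within Ing1-KO, and Eln from 196 to 609 CPM within Gadd45a-KO-labelled libraries; the call of Penk was lost without any WT replicate, Gadd45a-KO replicate 2, Ing1-KO replicate 2 or DKO replicate 3 (highest adjusted p = 0.084).

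The surroundings of Ing1 on its chromosome were read separately, with no test of the shares. Gene order was taken from a GENCODE annotation of a later build than that of the files, so distances are approximate. Within 1 Mb of Ing1, which was not counted, 7.14% of 14 tested genes were called and 0% moved alike. Within 5 Mb 22.9% of 48 tested genes were called (3 higher, 8 lower) and 14.6% moved alike, and within 20 Mb 16.8% of 149 were called and 10.1% moved alike, against 6.5% and 3.63% of all genes. Whatever else these libraries share around the deleted gene and the loss of Ing1 itself cannot be told apart here. Hgsnat, a lysosomal acetyltransferase 14.4 Mb away, stood at 114, 80.3 and 57.2 CPM in WT and 82.4, 149 and 143 CPM in Gadd45a-KO-labelled libraries, but at 39.0, 39.9 and 36.5 CPM in Ing1-KO and 38.4, 37.7 and 37.5 CPM in DKO-labelled libraries. The libraries with Ing1 were scattered over a wide range and those without were nearly equal (-1.42 ± 0.19, adjusted p = 0.00278, edgeR). Mcf2l, a guanine nucleotide exchange factor 1.31 Mb away, rose from between 2.64 and 3.12 CPM to between 3.67 and 5.17 CPM (0.66 ± 0.09, adjusted p = 0.00258). Nek3, a kinase of the NIMA family 10.6 Mb away and named after its values were seen, rose from between 1.58 and 3.09 CPM to between 3.73 and 5.37 CPM (1.10 ± 0.13, adjusted p = 0.00163), and Efnb2, the ligand ephrin-B2, fell by 0.22 (SE 0.04, adjusted p = 0.00709).

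**Figure D5:**
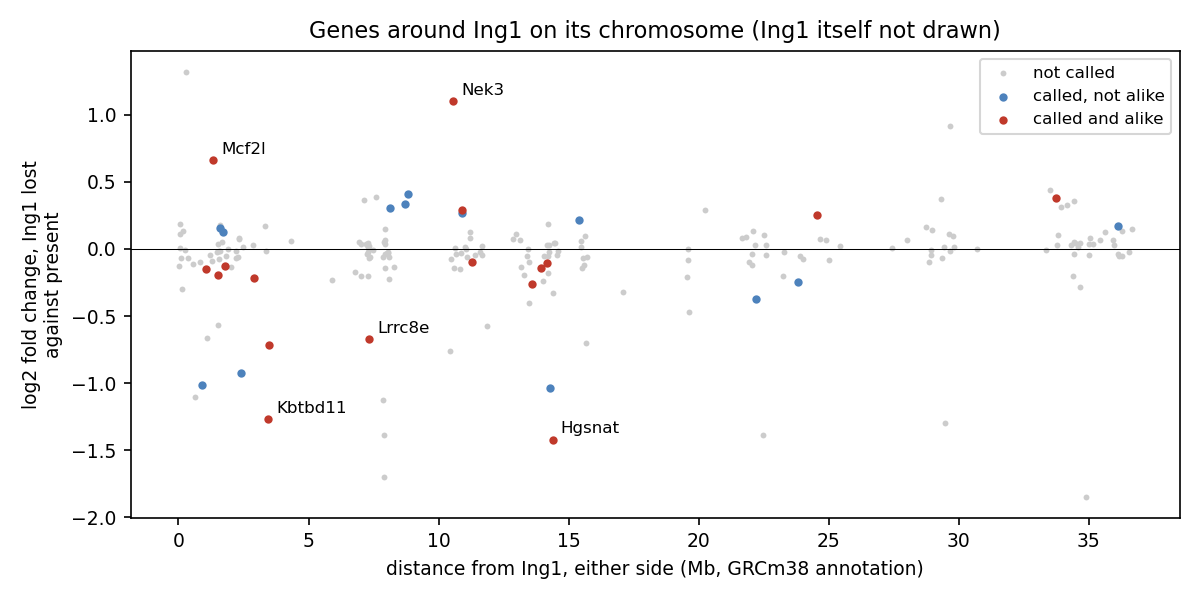
Main-effect log2 fold change of Ing1 loss (y axis) against the distance of a gene from Ing1 on its chromosome in Mb, both sides together (x axis), for tested genes up to 40 Mb away. Calls (blue, and red where the gene moved alike) make up 16.8% of the genes within 20 Mb, Hgsnat at -1.42 and Nek3 at 1.10 among them.

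At the threshold itself, the genes just inside were Gm14221 (edgeR adjusted p = 0.0498), Ldb3 (0.05) and Rad18 (0.0498), and those just outside Tmem26 (0.0501), Blvrb (0.0502) and Pitrm1 (0.0501). Rad18, a ubiquitin ligase of DNA damage tolerance, differed by -0.19 ± 0.05 and Tmem26, a membrane protein of beige fat, by 0.77 ± 0.21. With 1 library left out, Gm14221 was called in 0 of 12 fits by edgeR, Rad18 in 1 (without Gadd45a-KO replicate 1) and Ldb3 in 3 (without Gadd45a-KO replicate 1, Ing1-KO replicate 1 or DKO replicate 3).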

How the data were processed

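RNA of 12 libraries was analysed, 3 per genotype as the labels give it. The authors deposited, for each library, whole-number counts of reads by Ensembl identifier; per the submitters' processing notes the tools were HTSeq 0.5.4, DESeq, FastQC, Bowtie2 2.1.0 and TopHat2 2.0.9, and the builds mm9 and NCBIM37, and the strand setting is not given in the sources used here. Of 37991 identifiers 32919 matched a later GENCODE annotation, used for names and neighbourhood; 5 lines that name no gene, 24.2% to 24.85% of reads, were left out.

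Computed here: CPM on TMM-scaled libraries, and edgeR 4.0.16 (R 4.3.3) with filterByExpr, robust dispersions and the quasi-likelihood test. The main effect came from a fit of the Ing1 and Gadd45a labels over all 12 libraries, and the effects within backgrounds and the interaction from a fit of 4 genotype means. The common biological coefficient of variation was 0.114. Each SE was taken as the size of the log2 fold change over the root of F. Limma 3.58.1 and DESeq2 1.42.0 gave alternatives. The fits were tested on simulated counts. Of genes changed 2-fold on both backgrounds 70.2% were called and 66% counted as alike. Among 15797 unchanged genes 5 were called. The simulated counts were drawn independently for each gene and library, so differences that many genes share within a genotype were not simulated. No 2 libraries of a genotype were alike within counting noise.

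Promoter windows came from a RefSeq table, the first entry of each symbol, 250 bases before the start.

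The genes named are the targets, the 12 largest rises and 12 largest falls moving alike at a mean of at least 5 CPM, the 8 each way with the smallest adjusted p, up to 3 members moving alike per list, the 6 called genes at 5 CPM or more with the smallest interaction p, 18 genes of interest whatever their values, 3 each side of the threshold and up to 8 called within 10 Mb of Ing1. Genes outside this rule are said in the text to have been named after their values were seen, and some genes that meet it are not reported here. Members and lists were chosen with earlier results of these data known. Other settings are in the closing section.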

Additional observations from a re-analysis of the deposited data

Results flagged for a closer look

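In the 2 sets of 6 libraries, each named gene was examined for a library that stood apart by Dixon's criterion on log2 CPM, where chance alone marks about 1 in 20 sets. Each set holds 2 genotypes, so a genotype difference can also mark a library. Of 284 sets examined 11 were marked, fewer than 1 in 20. Gadd45a-KO replicate 1 stood lowest of the 6 libraries with Ing1 for Tmem26 (3.54 CPM, next 6.46), Mmp19 (73.4, next 83.3), Inhbb (87.5, next 119), Fabp5 (202, next 258), Lrrc8e (3.69, next 5.20) and Ccl5 (1.22, next 2.85). In the same 6 libraries Gadd45a-KO replicate 2 stood highest for Eya4 (20.2 CPM, next 16.2), and WT replicate 3 highest for Sycp1 (1.39 CPM, next 0.0637). Among the 6 libraries without Ing1, Ing1-KO replicate 1 stood highest for Cebpa (50.0 CPM, next 24.8), Ing1-KO replicate 3 lowest for L1cam (7.69 CPM, next 11.8) and DKO replicate 2 lowest for Ptger3 (4.31 CPM, next 6.55). Sycp1, Ccl5 and L1cam were added to the named genes after their values were seen. The call of Eya4 was lost without WT replicate 1 (edgeR adjusted p = 0.0562). That of Mmp19 held in 3 of 12 fits, those without Gadd45a-KO replicate 1, Ing1-KO replicate 1 or DKO replicate 3, and that of Ccl5 in 3 of 12, those without Gadd45a-KO replicate 1 or 2 or Ing1-KO replicate 3. No gene was called for a difference between the 2 backgrounds by edgeR's quasi-likelihood test.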

How the results depend on the processing

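Counts here are in the order called higher, called lower, alike higher, alike lower, against 474, 576, 270 and 317. A mean of at least 5 CPM, no filter, upper-quartile or RLE factors, limma-voom, the legacy quasi-likelihood fit and the leukocyte level as covariate kept all 4 within 1.5 times. The genes themselves changed more with the leukocyte level as covariate. Of 1223 calls in that fit 615 were among the 1050, and 349 of its 401 alike genes were among the 587. DESeq2 gave 886 and 972 calls. Without the Gadd45a label 302 and 352 were called, and at a fold of at least 1.5 165 and 180. Adding the adipocyte level as covariate, 132 and 142 genes were alike, 204 of them among the 587, and 344 of the 1050 calls were shared; a ratio of at least 0.75 between the effects gave 133 and 164; the fold and ratio rules keep a subset by construction, and the cause was not tested for the others. Leaving out 1 library gave ranges of 199 to 803, 228 to 986, 162 to 454 and 180 to 671. The interaction, 0 in the reported fit, was 1 with no filter, 175 by DESeq2, 5 with the adipocyte level and 0 to 191 with 1 library left out. With the replicate number as a block, 353, 491, 221 and 282 were counted and 0 for the interaction. The numbers are not shown to pair libraries: 5 of 18 same-numbered pairs correlated above 0.1 (range -0.44 to 0.462) and 3 of 12 libraries correlated best with their own number. Of 104 calls among named genes 75 held whichever library was dropped, and 47 in every setting; no value reversed. Depth limits the genes under 1 CPM, such as Barx1, to few reads a group.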

Other observations

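A few other genes that moved alike were named after their values were seen. Spaca1, a membrane protein of the sperm acrosome, stood at 1.93, 1.89 and 1.51 CPM in WT, 1.45, 1.76 and 1.55 CPM in Gadd45a-KO-labelled libraries, 5.33, 4.58 and 4.33 CPM in Ing1-KO and 3.38, 3.49 and 3.05 CPM in DKO-labelled libraries. The 2 sets of 6 libraries were far apart, and its adjusted p of 0.0002 (edgeR; log2 fold change 1.25 ± 0.10) was among the smallest of all genes. Syce1, another component of the synaptonemal complex, rose by 1.48 ± 0.31 (adjusted p = 0.0188) from between 0.0212 and 0.122 CPM to between 0.141 and 0.293 CPM, and lost its call without WT replicate 1 (0.0565). Xlr4b, an X-linked imprinted gene, rose by 1.54 ± 0.27 (adjusted p = 0.0086) from between 0.0629 and 0.119 CPM to between 0.173 and 0.351 CPM. It may share reads with near-identical copies, so its value is uncertain.

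On the X chromosome 30 of 41 called genes (73.2%) were higher without Ing1, against 474 of 1050 (45.1%) over all chromosomes, and 15 of the 19 that moved alike were higher. Chst7, a sulfotransferase, rose by 1.17 ± 0.16 on the log2 scale, and Reps2, an endocytic adaptor, by 0.66 ± 0.13. L1cam, a cell adhesion molecule, and Bgn, the proteoglycan biglycan, fell (-0.66 and -0.21). These X-linked genes were named after their values were seen. The share was seen after the fact and was not tested.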
